A study of Mus musculus with 2 samples.

Results

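The clustered histone genes of the mouse were described here by the CTCF sites at their starts and around their clusters in newborn forebrain. The members were the 67 protein-coding genes, of 21938 in the GENCODE M21 annotation, whose symbols start with Hist1h, Hist2h, Hist3h or Hist4. The rule reads gene symbols and no measured value, but it was chosen with earlier results of these data known. The series holds 1 group, forebrain of B6NCrl mice on postnatal day 0 precipitated with an antibody to CTCF, and the labels name no allele, treatment or second condition. The tissue was pulverized and pooled over dissections. The 2 libraries, called replicate 1 and replicate 2, cite the same biosample and donor, and their spread may therefore be technical. A control experiment that the labels call possible was not used here. Both a lower share of bound cells and weaker binding in every cell give a lower value in such pooled tissue, and the 2 cannot be told apart. The lists hold no expression values, so the tissue was not checked against its marker genes.

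Replication-dependent histone genes supply the proteins that package new DNA in each S phase. H2A, H2B, H3 and H4 form the core of the nucleosome, and H1 binds the linker DNA between nucleosomes. The genes are short, mostly lack introns and exist in many near-identical copies. Their mRNAs end in a conserved stem-loop instead of a poly(A) tail, and they are transcribed in nuclear histone locus bodies organised by the protein NPAT. The zinc-finger protein CTCF recognises a long, asymmetric DNA motif. Together with cohesin it holds chromatin loops, whose anchors are known to carry mostly motifs that point towards each other.

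The sequence at the gene ends bore out the label for most members. A stem-loop of 16 bases, written GGNNCTTTTNAGNNCC, was searched on the gene's strand within 300 bases after the stop codon. It was found in 63 of 67 members (94.0%), against 0.315% of all protein-coding genes, and began 21 to 58 bases after the stop codon, with a median of 30. It was not found in that window in Hist2h2be, Hist1h2an, Hist1h3g and Hist1h4a. The list also holds Hist1h1t, Hist1h2aa and Hist1h2ba, known as testis histones, each with a stem-loop. The 3 commonest of the 6 forms are shown to let a reader see how the stem changes while the pairing is kept, with the loop in capitals and the letters as DNA:
41 members, such as Hist2h3c2 (chr3:96238485-96238500, minus strand): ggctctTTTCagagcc
9 members, such as Hist2h2ab (chr3:96220333-96220348, plus strand): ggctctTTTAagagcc
8 members, all of them H4 genes, such as Hist4h4 (chr6:136803998-136804013, minus strand): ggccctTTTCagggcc

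A site was counted where the summit of a peak in the optimal list lay within 1 kb of a transcription start site (TSS). The optimal list is the authors' set of 56470 peaks that passed a threshold on the irreproducible discovery rate over both replicates, and 56462 of them lie on chromosomes 1 to 19, X and Y. Its signal value, the strength of a peak as the authors' peak caller wrote it, has no stated scale and was used here to rank and describe sites. The 6 sites of members that held the CTCF core motif are shown here, so that the member sites can be compared base by base; 5 of them are among the 6 strongest member sites, and Hist1h3e (120), also among those 6, held no match. Each is 30 bases of GRCm38 (mm10) from 5′ to 3′ on the minus strand of the chromosome, with the best motif match of 14 bases in capitals:
Hist1h4j, signal value 256, 0 mismatches, chr13:21734271-21734300: ctggatggCCACTAGAGGGCACtcttgact
Hist1h4c, signal value 180, 1 mismatch, chr13:23697553-23697582: gccatctgCCACAAGAGGGCGGcgttattt
Hist3h2a, signal value 145, 2 mismatches, chr11:58954972-58955001: gatggccaACTGCAGGTGGCGCgggatgat
Hist1h4f, signal value 130, 2 mismatches, chr13:23551667-23551696: atataccaGCTGTAGAGGGCGCttaaggaa
Hist2h4, signal value 107, 1 mismatch, chr3:96263464-96263493: gtaaggaaCCGGTAGAGGGCAGagaagaga
Hist1h2ab, signal value 26.4, 2 mismatches, chr13:23751367-23751396: gatggccaGCTGCAGGTGGCGCgggatgat

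Of the 67 members, 17 had a site (25.4%, Wilson 95% interval 16.5 to 36.9%), and the share over all protein-coding genes was 36.8%. The 17 members shared 16 summits, since 3 summits lay within reach of 2 members each. The members with a site had a median signal value of 28.2 (range 14.4 to 256), and all protein-coding genes with a site had 56.7. The 6 strongest member sites ran from 107 to 256, and 2 members, Hist1h4c and Hist3h2a, had more than 1 site (2.99%, against 8.39% of all protein-coding genes). Intervals here and below cover counting error only, and with 1 group of 2 libraries no test between groups was made. The direction of the share depends on what it is set beside: protein-coding genes with 1 exon had a site in 18.1% of cases, below the members, while genes with a GC content within the members' range had one in 38.1%. The lower median does not hold in every list, since the ratio of the members' median to that of all coding genes was 0.497 in the optimal list, 1.03 in the conservative list and 0.93 to 1.16 with each replicate alone.

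By histone class, H4 genes most often had a site, and H1 genes had none in the optimal list. The counts were 6 of 13 H4 genes, 3 of 12 H3 genes, 4 of 18 H2A genes, 4 of 18 H2B genes and 0 of 6 H1 genes. Over all protein-coding genes the share was 36.8%, and only the H4 genes, with 46.2%, stood above it. No class was tested against that share. The median signal value was 118 over the 6 H4 genes, 44.6 over the 4 H2A genes, 28.2 over the 3 H3 genes and 24.6 over the 4 H2B genes. Within 250 bp of a TSS lay the site of 4 H4 genes, 2 H2A genes, 1 H2B gene and no H3 gene, which makes 7 of 67 members (10.4%) against 22.9% of all protein-coding genes. The classes hold few genes and differ in how unique their sequence is, with a median over class members of 86.6% unique 32-base words for H4 and 66.4% for H2A. The part of that difference in the counts was not tested.

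**Figure D1:**
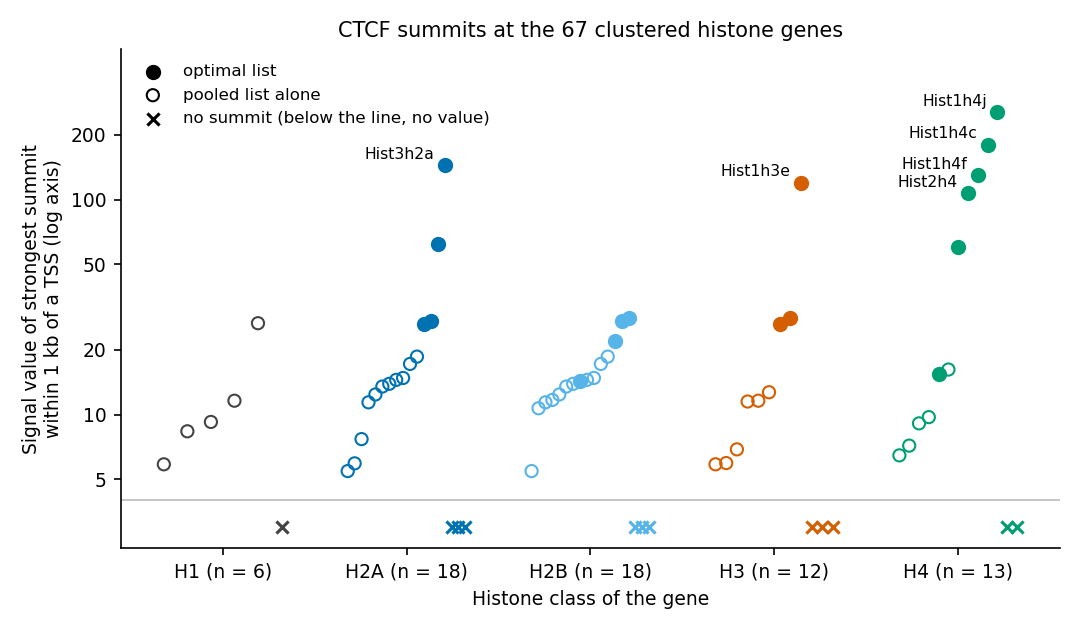
Signal value (log axis) of the strongest summit within 1 kb of a TSS for each of the 67 members, by histone class; filled points are in the optimal list, open points in the pooled list alone, and crosses below the line are the 12 members with no summit. The 4 highest H4 genes lie between 107 and 256, and no H1 gene has a filled point.

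Hist1h4j, an H4 gene on chromosome 13, had the strongest member site. Its signal value was 134 in replicate 1, 121 in replicate 2 and 256 in the optimal list, rank 7010 of 56462, and both replicates were high. The summit (peak chr13:21734162-21734424) lay 767 bp before the TSS, in intergenic DNA. Hist1h4c had 98.2 in replicate 1, 81.9 in replicate 2 and 180 in the optimal list at a summit 874 bp after the TSS, beyond the gene's end. A second summit of Hist1h4c lay in its coding exon 46 bp after the TSS and was weaker, with 20.6, 12.8 and 37.0 in the same order. No motif match within 2 mismatches lay near that second summit.

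Hist1h4f carried its site at the promoter itself, at base 23551672 of chromosome 13, 24 bp before the GENCODE TSS at 23551648. The RefSeq start used for the bases below lies farther upstream, as those bases end at 23551669. The summit thus falls between the motif match and the end of the printed bases. The signal value of Hist1h4f was 78.3 in replicate 1, 53.2 in replicate 2 and 130 in the optimal list. Its promoter is printed because the CTCF match sits next to the gene start: 250 bases before the start from RefSeq (GRCm38, chr13:23551669-23551918, minus strand), with the match at bases 231 to 244 in capitals:
Hist1h4f promoter: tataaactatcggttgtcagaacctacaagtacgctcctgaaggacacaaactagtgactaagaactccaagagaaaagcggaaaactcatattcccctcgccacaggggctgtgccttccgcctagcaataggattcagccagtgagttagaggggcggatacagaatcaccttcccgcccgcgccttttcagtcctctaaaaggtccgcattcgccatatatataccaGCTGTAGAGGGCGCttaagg

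Hist2h4, the H4 gene of the chromosome 3 cluster, had 63.5 in replicate 1, 42.0 in replicate 2 and 107 in the optimal list, 172 bp before its TSS. Hist1h4a had 40.2, 19.8 and 59.9, with the summit 969 bp after its TSS and beyond the gene's end. The log2 ratio of replicate 1 to replicate 2 there, centred on the median over the list, was 0.82. Hist4h4, the H4 gene that lies alone on chromosome 6, had 6.81, 6.8 and 15.4 at a summit 136 bp inside the gene and ranked 55538 of 56462. The H4 sites thus ran from rank 7010 to rank 55538.

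Among H2A genes, Hist3h2a on chromosome 11 had the strongest site, with 75.1 in replicate 1, 72.3 in replicate 2 and 145 in the optimal list. The summit lay 294 bp after the TSS, in the coding exon. A second optimal-list summit of 65.8 lay 495 bp after the TSS and fell in the same replicate peaks, so it has no replicate value of its own. Both also lay within 1 kb of a TSS of Trim17, the overlapping neighbour. Hist2h2ab had 35.3, 28.5 and 62.1 at a summit 511 bp before its TSS, also within 1 kb of Bola1, a mitochondrial iron-sulfur cluster gene. Hist1h2ac had 10.1, 16.1 and 27.2, and Hist1h2ab had 17.5, 8.35 and 26.4. At these last 2 genes the replicates pointed opposite ways, with centred log2 ratios of -0.87 and 0.87.

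The H3 and H2B sites were weaker apart from Hist1h3e. Hist1h3e, an H3 gene, had 65.8 in replicate 1, 51.5 in replicate 2 and 120 in the optimal list at a summit 957 bp before its TSS, with no motif match. Hist1h3c and Hist1h2bb shared a summit with 15.7, 13.4 and 28.2, which lay 767 and 365 bp before their TSSs. Hist1h3b reached the summit of Hist1h2ab, 921 bp before its own TSS, and Hist1h2bc the summit of Hist1h2ac, 483 bp before its own TSS. Hist3h2ba had 13.7, 10.5 and 22.0 at a summit 627 bp before its TSS. Hist2h2bb had the lowest signal value, with 8.56, 5.33 and 14.4 at a summit 14 bp after its TSS, rank 55678 of 56462. The 6 member summits from 28.2 downward held ranks 45526 to 55678. The conservative list, the authors' shorter list of 54779 peaks, kept 11 of the 17 members and lost Hist2h2bb, Hist4h4, Hist1h2ac, Hist1h2bc, Hist1h2ab and Hist1h3b.

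Most member summits lay before or after the short gene itself. Of 19 pairs of a member and a summit, 10 had the summit upstream of the TSS, 7 inside the gene and 2 beyond its end. Over all protein-coding genes, 41.7% of 10246 pairs were upstream, 58.1% in the gene and 0.146% beyond the end. The median member is 539 bp long and the median protein-coding gene 17425 bp, so a window of 1 kb reaches beyond the end of most members and of few other genes. The CTCF core motif lay within 50 bp of 6 of the 16 member summits (37.5%, interval 18.5 to 61.4%), near the 36.0% over all coding TSS summits and below the 66.6% over the whole list. All 6 matches were on the minus strand of the chromosome, whereas over all coding TSS summits 1637 were on the plus and 1728 on the minus strand. The matches of Hist3h2a and Hist1h2ab lie in nearly the same H2A coding sequence and are not separate observations. The difference in strands was not tested. For Hist1h4c, Hist1h4f and Hist2h4 the minus strand is the gene's own strand, and for Hist1h4j, Hist3h2a and Hist1h2ab it is the opposite strand.

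The next layer was the pooled list, the 300000 peaks called on both libraries together with no threshold on reproducibility. Of the 67 members, 55 had a pooled-list summit within 1 kb (82.1%, interval 71.3 to 89.4%), against 68.5% of all protein-coding genes. With a q-value of at most 0.05 these were 41 members (61.2%) against 54.5%. The 38 members with a pooled-list summit alone had signal values of 5.46 to 26.6, with a median of 11.6. Hist1h1c, a linker histone gene, stood at the top of these with 10.5 in replicate 1, 13.0 in replicate 2 and 26.6 in the pooled list, 68 bp after its TSS. Hist1h1c and Hist1h4b (9.07, 8.52 and 16.2) were the members that the conservative list held and the optimal list did not. At the lower end, Hist1h2aa and Hist1h2ba, the testis pair, shared a pooled summit of 5.46.

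The pooled summits of H2A genes lay in their coding sequence. In 13 of 18 H2A genes (72.2%) a pooled-list summit within 1 kb was in the gene's own coding exon. For H2B this held in 2 of 18 genes, for H3 in 4 of 12, for H4 in 5 of 13, for H1 in 1 of 6, and over all protein-coding genes in 12.6%. That last share is not matched for gene length, as the median member is 539 bp long and the median protein-coding gene 17425 bp. It was not counted for genes with 1 exon. The H2A summits include weak ones, such as that of Hist1h2af with a −log10 q of 0.503. A match to the CTCF core motif occurs at coding bases 243 to 256 of the 18 H2A genes, counted from the A of the ATG and on the strand opposite to the gene, with at most 2 mismatches in 16 of them. The pattern was looked for after the sites of Hist3h2a and Hist1h2ab had been seen. The 14 matched bases were the same in 14 of the 18 genes. The form of Hist1h2ab is the common one, and the form of Hist3h2a differs by G1A, the first match base counted from its 5′ end:
Hist1h2ab, chr13:23751367-23751396, minus strand: gatggccaGCTGCAGGTGGCGCgggatgat
Hist3h2a, chr11:58954972-58955001, minus strand: gatggccaACTGCAGGTGGCGCgggatgat

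Strength and position nevertheless differed between Hist3h2a and the other H2A genes that carry this match. A pooled-list summit lay within 100 bp of the match in 11 of the 18 genes. At Hist3h2a it was 8 bp from the match, with a signal value of 145. At the other 10 it was 36 to 86 bp away, at coding bases 164 to 214, with signal values of 7.69 to 27.2 and a median of 14.2. A weaker match on the gene's own strand, with 3 mismatches and so outside the threshold used for the motif, lies at coding bases 189 to 202 of 17 H2A genes and was nearer to those 10 summits, at 2 to 32 bp. Hist3h2a has 5 mismatches there. The 17 genes hold the same bases in this weaker match, so they are not separate observations. The match was named after the summit positions had been seen, and its rate in random windows was not counted. It is printed for Hist1h2ac, whose summit lay 6 bp from it, beside Hist3h2a:
Hist1h2ac, coding bases 189 to 202: gccgagatCCTGGAGCTGGCGGgcaacgcg
Hist3h2a, coding bases 189 to 202: gctgagatCCTGGAATTGGCTGgtaatgcg
Within 100 bp of the antisense match, 64.5% of the 32-base words of Hist3h2a occur once in the genome, whereas at the median of the 11 genes none do. The part of sequence uniqueness in the position and height of these summits was not tested.

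**Figure D2:**
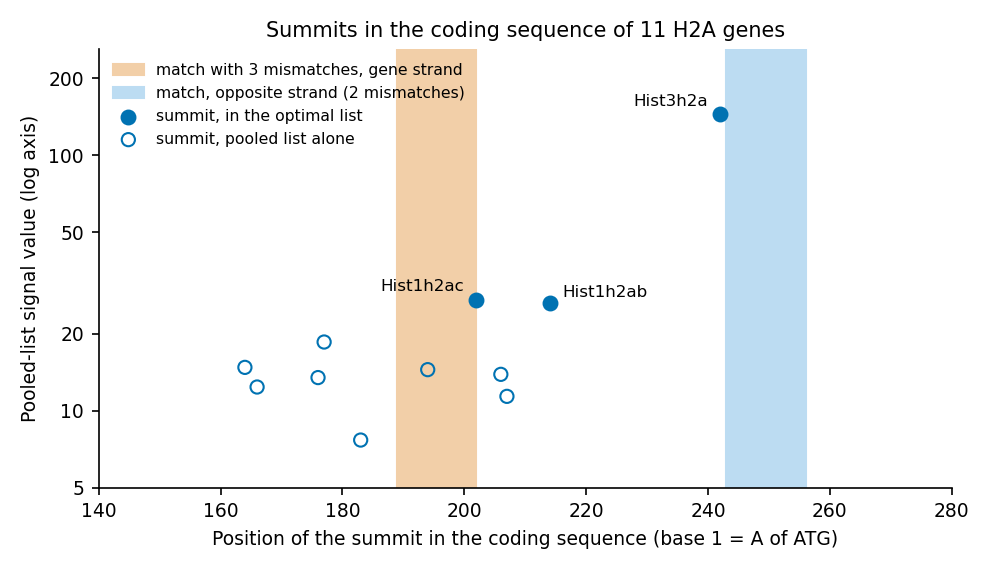
Position of the pooled-list summit in the coding sequence (bases from the A of the ATG) against its pooled-list signal value (log axis) for the 11 H2A genes with a summit within 100 bp of the antisense match; bands mark the match positions at bases 189 to 202 and 243 to 256. Hist3h2a stands apart at 145, beside the second band, and the other 10 lie between bases 164 and 214; Hist3h2a itself has 5 mismatches in the first band.

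Head-to-head pairs seldom had a site. The Hist1 and Hist2 clusters hold 12 pairs of an H2A and an H2B gene arranged back to back, with 176 to 306 bp between the TSSs of a pair. Hist1h2bh and Hist1h3f form a further pair. Of these 13 pairs, 1 had an optimal-list site at either gene (7.69%), the pair of Hist1h2ac and Hist1h2bc. Of the 1008 head-to-head pairs of all protein-coding genes with TSSs up to 1 kb apart, 62.2% had one. Those pairs were not matched to the member pairs for exon number or sequence uniqueness, and the part of either in the difference was not tested. For the pair of Hist1h2bq and Hist1h2ao and that of Hist1h2ap and Hist1h2br, no sequence word around the gene starts was unique. A missing site there is not evidence that CTCF was absent. In the pooled list 10 of the 12 H2A and H2B pairs had a summit, and in all 10 the strongest one was the same for both genes. In 9 of those 10 it lay in the coding exon of the H2A gene. The H2B partner was therefore counted through the summit in its neighbour, and the 55 members with a pooled-list summit are not 55 separate sites.

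The octamer ATTTGCAT, searched on both strands in the 250 bases before the gene start, lay in 15 of 67 members (22.4%) against 1.45% of all protein-coding genes. These were 7 of 18 H2A and 8 of 18 H2B genes, and no H1, H3 or H4 gene; the difference between classes was not tested. The word TATAAA lay in 34 members (50.7%) against 11.5%. A match to such a word is a description of these bases only.

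Taken over all clusters, the stretches in and beside them held more CTCF summits per length than whole chromosomes, but single clusters differed. Members at most 100 kb apart were joined into 7 clusters: the Hist2 cluster of chromosome 3 (chr3:96219865-96270132, 10 members), Hist4h4 alone on chromosome 6, the Hist3 pair on chromosome 11 (chr11:58948920-58956830) and 4 groups of Hist1 genes on chromosome 13. The cluster bodies, 426 kb in all, held 20 optimal-list summits, which is 4.7 per 100 kb (exact Poisson 95% interval 2.87 to 7.25). The flanks, 50 kb on each side, held 37 summits, or 5.29 per 100 kb (3.72 to 7.29). By cluster, the flank density was 12.0 at the Hist3 pair, 9.0 at the Hist2 cluster, 4.0 at Hist4h4 and 2.0 to 4.0 at the 4 Hist1 groups. The whole of chromosomes 1 to 19, X and Y held 2.13 per 100 kb, and chromosomes 3, 6, 11 and 13 held 1.77, 2.12, 3.48 and 1.86. Among the bodies, the largest Hist1 group gave 5.14 per 100 kb and the Hist2 cluster 3.98 (interval 0.482 to 14.4). The group of 18 Hist1 genes from Hist1h2bl to Hist1h2br gave 1.64 (0.199 to 5.93), below the value of chromosome 13, and the 2 smallest Hist1 groups had no body summit. The short bodies on chromosomes 11 and 6, of 7.91 and 2.86 kb, held 3 and 1 summits. Densities of whole chromosomes include long stretches with no genes. The flank density came to 8.57 with flanks of 20 kb and 3.79 with flanks of 100 kb. That of the bodies came to 2.58 in the stronger part of the list, the peaks at or above its median signal value. Whole chromosomes were not counted in that part, so 2.58 cannot be set against 2.13.

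**Figure D3:**
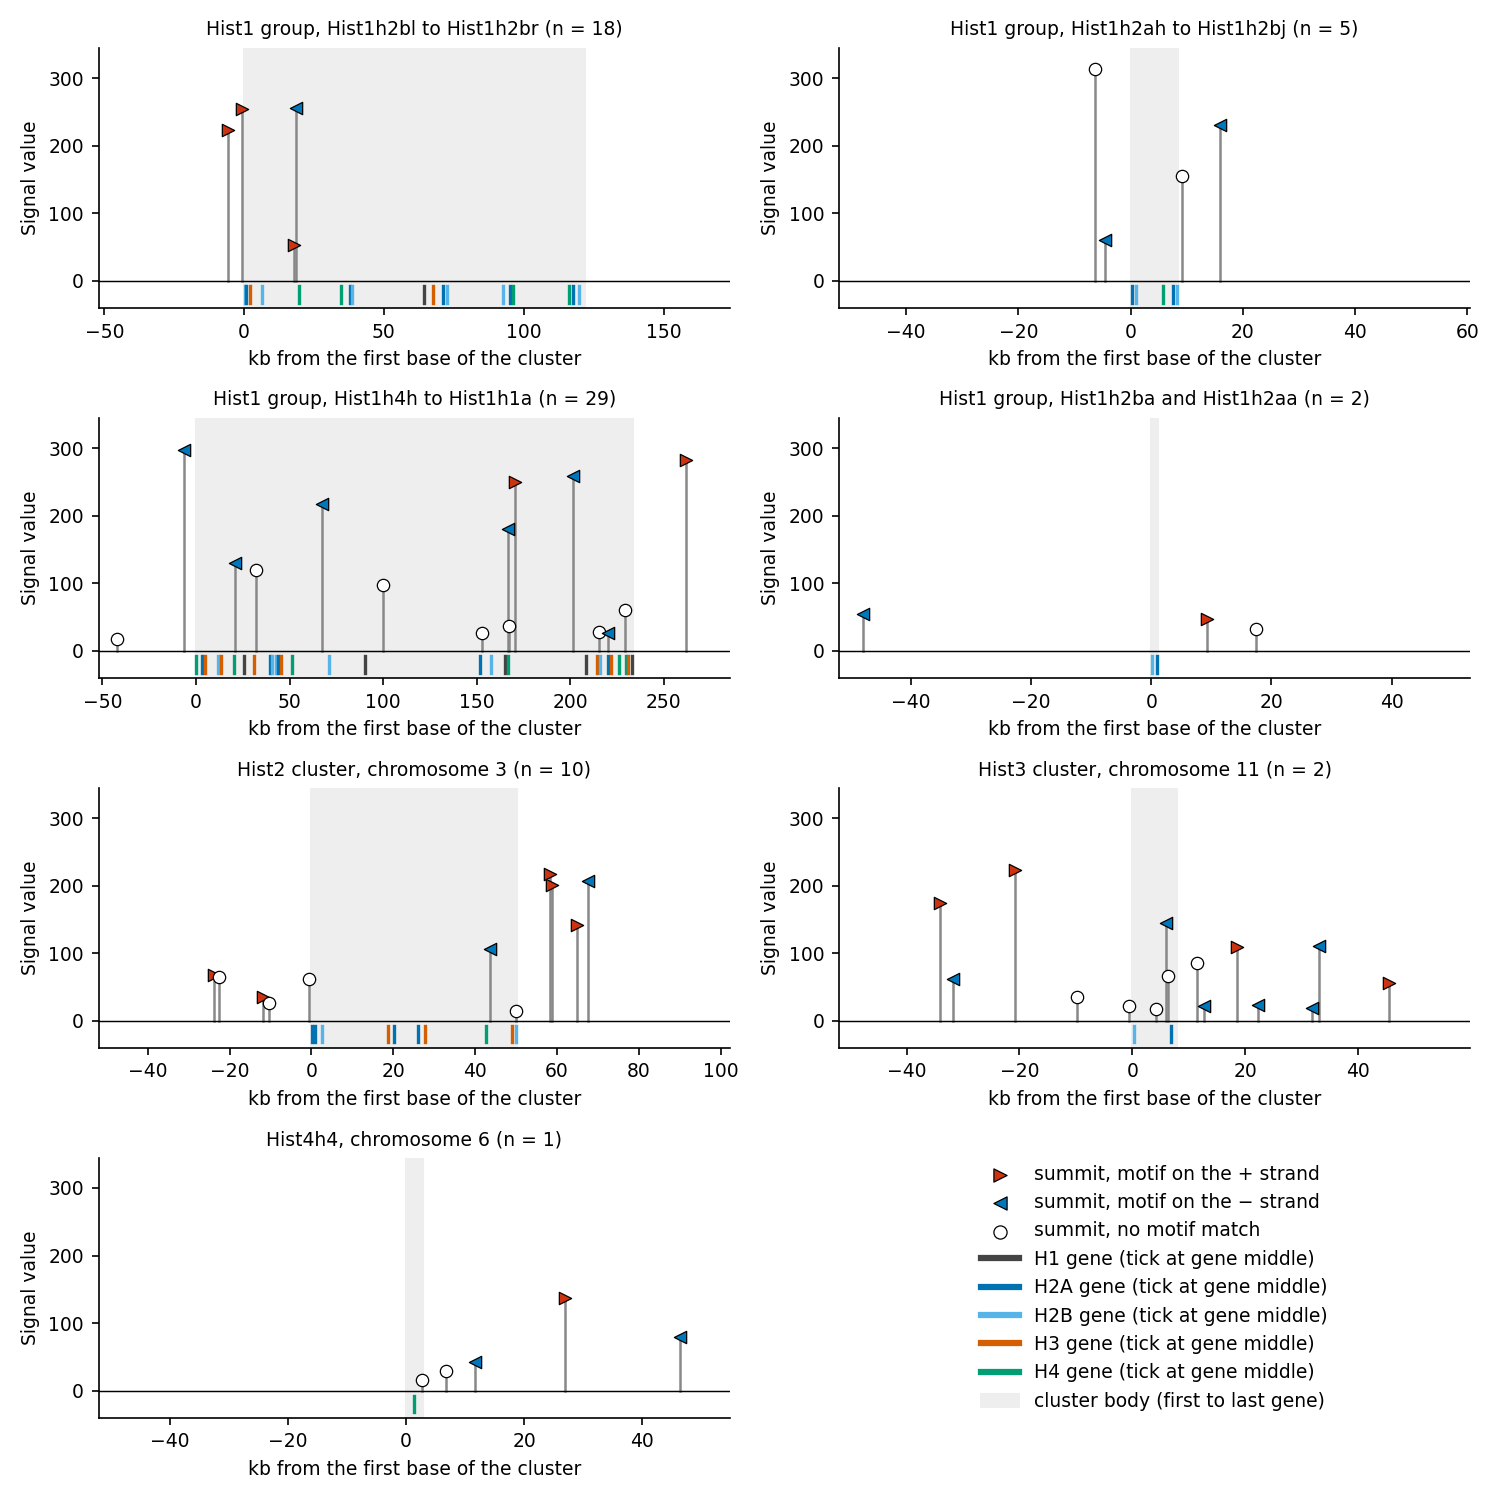
Optimal-list summits in the 7 clusters and their 50 kb flanks; height is the signal value, the x axis is kb from the first base of the cluster, grey is the cluster body, ticks below the line are the histone genes coloured by class, and arrowheads give the strand of the motif match. In the group from Hist1h2bl to Hist1h2br all 4 summits lie within 20 kb of its left end.

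The largest Hist1 group, from Hist1h4h to Hist1h1a (chr13:23531050-23764406), held 29 members, of which 10 had a site, and 12 summits in its body (interval of the density 2.66 to 8.98 per 100 kb). Its 3 strongest body summits lay away from all member TSSs. The strongest, 6132 bp from the TSS of Hist1h1c, had 127 in replicate 1, 131 in replicate 2 and 259 in the optimal list. The next, 2935 bp from Hist1h4c, had 128, 122 and 250. The weakest of the 3 lay in an intron of Hist1h2be, 16588 bp from the TSS of Hist1h4d, with 108, 108 and 218. All 3 were high in both replicates. On the left flank a summit 6221 bp from Hist1h4h had 152, 146 and 297, and on the right flank a summit whose nearest coding gene is Trim38, an E3 ubiquitin ligase gene, had 154, 129 and 282. The second left-flank summit, near the butyrophilin gene Btn2a2, had 17.0, with 14.5 in replicate 2 and no overlapping peak in replicate 1. These 5 strong sites are printed in order along the chromosome, because they are the strongest in the body and in each flank of the largest group and their motifs do not all point the same way:
Left flank near Hist1h4h, 297, minus strand, chr13:23524806-23524835: caggccagCCACATGAGGGCGCcagagaga
Intron of Hist1h2be, 218, minus strand, chr13:23598165-23598194: tttggaaaCCACTAGGTGGCGCtgcgaggc
Near Hist1h4c, 250, plus strand, chr13:23701372-23701401: gaagtaagCCACCAGGTGTCACccttcttc
Near Hist1h1c, 259, minus strand, chr13:23732658-23732687: cttagcagACACTAGATGGCAGgccaaaac
Right flank near Trim38, 282, plus strand, chr13:23792668-23792697: catgctgaCCAGTAGGTGGCAGtcttgtat

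In 2 of the other Hist1 groups, strong sites lay outside or at the edge of the genes. In the group from Hist1h2bl to Hist1h2br (chr13:21715763-21837530), 1 of 18 members had a site, Hist1h4j. The 2 summits of its left flank had 132, 123 and 255 at 1223 bp from Hist1h2bl, and 124, 101 and 224 at 6032 bp from it. Besides the Hist1h4j site its body held a summit 1444 bp from Hist1h4j with 24.8, 26.4 and 52.6, and the right flank held none. Motifs of the left-flank pair and of the weaker body summit were on the plus strand, and that of the Hist1h4j site on the minus strand. They are shown for the 2 flank sites, to be read with the Hist1h4j sequence above:
Left flank, 255, plus strand, chr13:21714904-21714933: gtttgtggCCACAAGATGGCAGaaaagagc
Left flank, 224, plus strand, chr13:21710082-21710111: acttccgaCCAGTAGGGAGCAGcactgatc

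The group from Hist1h2ah to Hist1h2bj (chr13:22035164-22043676) had no summit in its body and no member with a site, among 5 members. Its left flank held a summit with 164 in replicate 1, 147 in replicate 2 and 313 in the optimal list, 6716 bp from Hist1h2ah and without a motif match, and a second with 33.0, 28.6 and 60.1. On the right, 1130 bp from Hist1h2bj, lay a summit with 82.1, 77.4 and 156, again without a motif match, and farther out one with 125, 108 and 231. The 313 was the highest signal value of all bodies and flanks. Around Hist1h2ba and Hist1h2aa, the testis pair, no body summit was in the list, and the strongest summits of the flanks had 55.1, in an intron of Slc17a1, and 47.8, 8589 bp from Hist1h2aa.

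In the Hist2 cluster of chromosome 3, 3 of 10 members had a site, and the stronger sites lay to the right of the genes. The right flank held 4 summits, all with a motif match, of which the strongest had 114 in replicate 1, 98.9 in replicate 2 and 217 in the optimal list, 8372 bp from Hist2h2bb. The second had 113, 97.8 and 207, in an intron of Fcgr1, an Fc receptor gene. The 5 summits of the left flank ran from 25.9 to 67.9, the strongest 1438 bp from Bola1. The strands were 3 plus and 1 minus on the right, and 2 plus on the left.

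At the Hist3 pair on chromosome 11, both members had a site, and the flanks held 12 summits. The strongest of the left flank had 123, 95.2 and 223 and the next 98.0, 75.7 and 174, both nearest to Btnl10. On the right the strongest were 111, in a coding exon of Trim11, and 109, in an intron of Trim17. A further body summit of 18.2 lay 1537 bp from Hist3h2a. Hist4h4 on chromosome 6 had no left-flank summit within 50 kb and 4 on the right, of which the strongest were 138 near Wbp11, a splicing factor gene, and 79.6 near BC049715. Of the summits in all bodies, 10 of 20 had the motif (interval of the share 29.9 to 70.1%), 2 on the plus and 8 on the minus strand. In the flanks 26 of 37 had it (70.3%, interval 54.2 to 82.5%), 14 on the plus and 12 on the minus strand. Over the whole list 18793 matches were on the plus and 18823 on the minus strand. The 8 minus-strand matches of the bodies include the 6 at member summits.

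Repeated sequence limits what peak lists can show at these genes. Each window of 1 kb on both sides of the gene start was cut into words of 32 bases, and the share of words that occur once in the assembled chromosomes was counted. The median was 75.5% over the members (range 0 to 100%) and 98.7% over the protein-coding genes of the 4 chromosomes. In 10 members fewer than 50% of the words were unique: Hist2h3c2, Hist2h2aa2, Hist2h2aa1, Hist2h3c1, Hist1h2bq, Hist1h2ao, Hist1h4m, Hist1h4n, Hist1h2ap and Hist1h2br. None of these 10 had an optimal-list site, and 9 of them were among the 12 members with no pooled-list summit. The other 3 without one were Hist1h2bh, Hist1h3f and Hist1h1d. Of the 57 members with 50% or more, 17 had a site (29.8%), against 39.1% of the protein-coding genes of those chromosomes with 50% or more, and 3.5% of those below it had one. Neither the length of the reads nor the treatment of reads that match several places is stated in the labels, and at the 10 repeated genes a missing summit is not evidence that CTCF was absent.

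**Figure D4:**
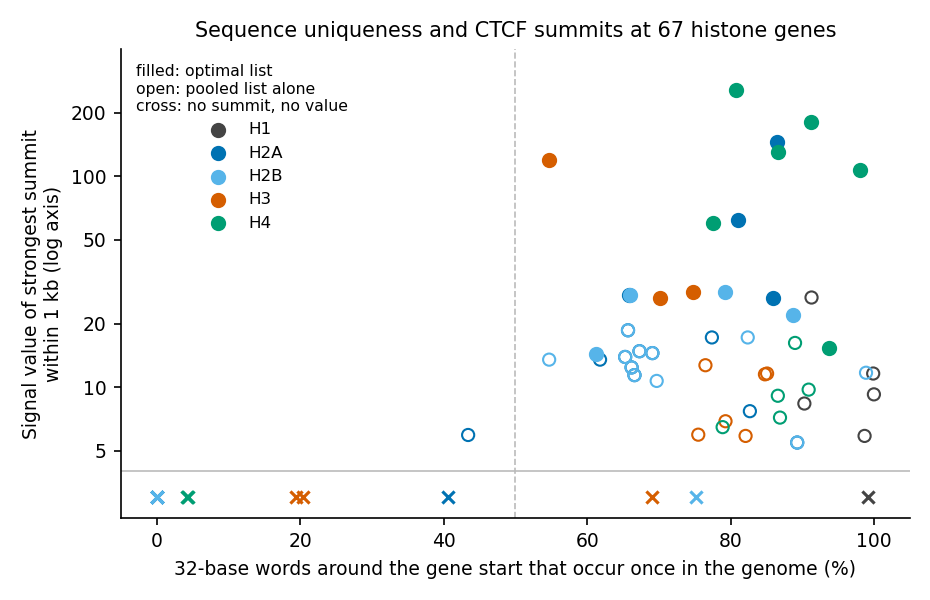
Share of 32-base words around the gene start that occur once in the genome (%, x axis) against the signal value of the strongest summit within 1 kb (log axis) for the 67 members; filled points are in the optimal list, open points in the pooled list alone, crosses below the line have no summit. All filled points lie at 54.7% or above, and 9 of the 12 crosses lie below 50%.

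Among the 16 member summits, the 3 largest differences between replicates were at sites with signal values below 60, those of Hist1h2ac, Hist1h2ab and Hist1h4a. Replicate 1 had the higher signal value relative to the list's median ratio at 11 of the 16 member summits and replicate 2 at 5. The SD of the centred log2 ratio was 0.42 over these 16 and 0.50 over the 56235 sites of the list with a peak in both replicates. Both summits of Hist3h2a fall in the same replicate peaks, so their shared values count 2 times among the 5 and in the SD of 0.42. Taking as many of the strongest peaks from each replicate as the optimal list holds, 11 members had a summit in both replicates, 4 in replicate 1 alone, 3 in replicate 2 alone and 49 in neither. All 11 were among the 17. With the peaks of replicate 1 alone 15 members had a site (22.4%) against 38.3% of all protein-coding genes, and with those of replicate 2 alone 14 (20.9%) against 37.2%.

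**Figure D5:**
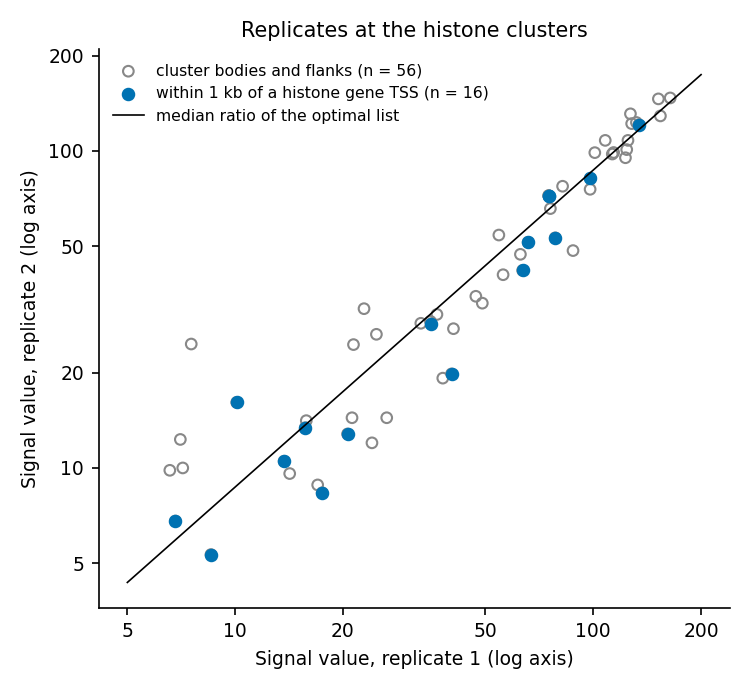
Signal value in replicate 1 (x axis) against replicate 2 (y axis), both log axes, for the 16 summits within 1 kb of a member TSS (filled) and the 56 summits of cluster bodies and flanks with a peak in both replicates (open); the line is the median ratio over the optimal list. The points near 100 and above lie close to the line, and those below 30 scatter farther from it. Both summits of Hist3h2a have the same replicate values and fall on 1 point.

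Other genes of histone supply had a site in a larger share of cases than the clustered genes. Over 4 lists of such genes, 43 of 63 had an optimal-list summit within 1 kb (68.3%), beside 36.8% of all protein-coding genes and 25.4% of the members; no test of the lists was made. The lists were not matched to the members for exon number, GC content or sequence uniqueness, and the part of these in the difference was not tested. Among the histone variant genes, which lie outside the cluster bodies and are mostly made throughout the cell cycle, 10 of 11 had a site. They are not wholly separate from the clustered genes. The site of H2afj (29.9) is also a right-flank summit of Hist4h4, 3855 bp from that gene's TSS, and H2afx carries the stem-loop too. The strongest were H3f3b, for H3.3, with 87.8 in replicate 1, 67.3 in replicate 2 and 156 in the optimal list, H2afy2, for a macroH2A, with 88.8, 66.6 and 155, and H2afx, for the DNA damage variant H2A.X, with 58.9, 46.8 and 103. H2afy had none.

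Of the genes of the histone locus body and of histone gene transcription, 7 of 12 had a site. Trrap, an acetyltransferase cofactor, had 198, 144 and 336, Pou2f1, for the octamer factor Oct-1, had 82.5, 75.5 and 157, and Npat, for the organiser of the histone locus body, had 31.0, 41.0 and 70.4. Of the genes for processing the 3′ end, 13 of 21 had a site. Lsm11, a subunit of the U7 snRNP that cuts histone pre-mRNA, had 274, 264 and 535, Snrpe had 220, 198 and 416, and Mif4gd, for a partner of the stem-loop binding protein, had 75.8, 65.2 and 142. Of the histone chaperone genes, 13 of 19 had a site, led by Hjurp with 287, 247 and 532, Asf1b with 181, 151 and 333, and Asf1a with 81.4, 68.5 and 146. Lsm11 and Hjurp exceeded every member site, and every site in the cluster bodies and flanks, in each replicate.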

How the data were processed

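CTCF ChIP-seq of newborn mouse forebrain was analysed from the deposited peak lists: 1 for each of the 2 replicates, 1 called on both, and the optimal and conservative lists thresholded on the irreproducible discovery rate. The assembly is mm10, per the labels. For aligner, peak caller, read length and depth, nothing is given in the sources used here. Per peak, the authors' files gave a signal value, −log10 of a q-value, a score (in the thresholded lists, not used here) and a summit offset, from which the summit was placed. The 300000 peaks of each replicate and of the pooled list reflect a fixed list length.

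The members, gene lists and measures were chosen with earlier results of these data known. TSSs are the 5′ ends of GENCODE M21 basic transcripts. A site is a summit within 1 kb of one. A replicate's value is that of its strongest overlapping peak. The CTCF core motif of 14 bases was searched on both strands within 50 bp of the summit with at most 2 mismatches. Genome sequence is GRCm38, and promoters are from RefSeq (62 of 67 members matched by synonym and position). The text names every member with a site, per cluster the 3 strongest body summits and 2 per flank, the 3 highest genes of each other list, and the 3 members with the largest replicate difference. Hist1h1c, Hist1h4b and the H2A coding matches were named after their values were seen. Tested on simulated data, 200 of 200 planted summits were assigned and 1000 of 1000 planted motifs found; 14 of 1000 random windows held a match. Alternatives were other lists, windows, distances, mismatch limits, backgrounds and each replicate alone. Work used Python 3.11.15, numpy 2.4.6, pandas 2.3.3, scipy 1.17.1, pysam 0.24.0, matplotlib 3.10.9 and samtools 1.23.1.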

Additional observations from a re-analysis of the deposited data

How the results depend on the processing

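Over 19 results, 58 of 102 alternative values stayed near the one reported, 41 moved and 3 changed direction. Near means within 1.5 times for a count, within the Wilson interval for a motif or position share, and otherwise within 1 SD, for most results that of only 2 single-replicate values. The member share minus the share of all protein-coding genes was -11.5 percentage points and became 7.32 beside protein-coding genes with 1 exon. It was -12.7 beside genes of like GC content, -16.1 in the conservative list, -7.93 in the list's stronger part, -15.4 within 500 bp, -4.51 within 5 kb, -8.62 with 1 TSS per gene, -16.3 to -16.0 without 1 replicate, -12.6 beside the coding genes of the 4 chromosomes, and -9.3 when those genes and the members were also limited to at least 50% unique words, the last 2 chosen after seeing the data. Members with a site numbered 6 in the stronger part, 10 within 500 bp, 32 within 5 kb and 14 to 15 without 1 replicate, and those with a pooled-list summit 31 at a q-value of at most 0.01. The share of all protein-coding genes at that q-value was not counted. The ratio of medians was 0.497 and passed 1 in the conservative list (1.03) and without replicate 2 (1.16); it was 0.928 in the stronger part, 0.756 within 5 kb and 0.93 without replicate 1. By class, the conservative list gave 1 H1, 2 H2A and 2 H2B genes, the stronger part 1 H2A, 0 H2B and 1 H3 gene, 500 bp 0 H3 genes, and 5 kb 3 H1, 8 H2A, 7 H2B and 6 H3 genes. Without 1 replicate there were 0 to 1 H1 genes. All these counts are to be read beside the share of all protein-coding genes with a site at the same setting. It was 35.5% in the conservative list, 16.9% in the stronger part, 30.4% within 500 bp and 52.3% within 5 kb. Without 1 replicate it was 37.2 to 38.3%. Summits per 100 kb in bodies and flanks were 2.58 and 2.86 in the stronger part, for which no whole-chromosome density was counted. They were 5.18 and 4.75 with members chained at 50 kb, and 3.66 and 6.6 at 500 kb. In the flanks they were 4.86 in the conservative list, 8.57 with flanks of 20 kb and 3.79 with 100 kb. Without 1 replicate they were 4.23 to 4.7 in bodies and 5.0 to 5.29 in flanks. With at most 1 mismatch the motif share was 32.4% of flank summits and 30% of body summits. No paired analysis was possible because the series holds 1 group. Depth was not given, so no limit of detection can be stated, and the weakest peaks are set by the fixed length of the lists.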

Other observations

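Motif matches in the clusters were mostly without a summit, as elsewhere on their chromosomes. In the cluster bodies 2 of 2 matches with 0 mismatches, 4 of 11 with 1 mismatch and 4 of 90 with 2 mismatches (4.44%) had an optimal-list summit. On the whole of the 4 chromosomes the shares were 84.9%, 27.8% and 4.13%. In the flanks 1 of 2, 11 of 21 and 16 of 165 had one. The 2 matches with 0 mismatches in the bodies are those before Hist1h4j and in the intron of Hist1h2be.

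Between the groups of Hist1 genes on chromosome 13 the density of summits varied. The stretch from Hist1h2br to Hist1h2ah held 6 summits, or 3.04 per 100 kb (exact Poisson 95% interval 1.11 to 6.61). The stretch from Hist1h2bj to Hist1h4h, 1487 kb long, held 17, or 1.14 per 100 kb (0.666 to 1.83), and that from Hist1h1a to Hist1h2ba held 3, or 1.77 per 100 kb (0.365 to 5.18). The nearest optimal-list summit was a median of 6.13 kb from the TSS of a member and 4.17 kb from that of a protein-coding gene.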
